A study of Mus musculus with 8 samples.

Results

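Cholesterol and fatty acid synthesis genes are described here in islets of mice that lost NFATc2 in their beta cells. Islets are the endocrine cell clusters of the pancreas, and NFATc2 is a transcription factor that calcineurin activates when cell calcium rises. The set holds 38 genes out of 16333 in the deposited tables, found by gene symbol in the comparison of the genotypes with cytokines. It comprises 8 enzymes of the mevalonate and isoprenoid pathway and 11 enzymes that form squalene (Fdft1) or carry it to cholesterol. Another 5 genes encode the SREBP (sterol regulatory element-binding protein) factors and their partners in the endoplasmic reticulum. The rest are 3 sterol transport genes and 11 genes of fatty acid synthesis and modification. The set was put together with results of the genotype comparisons known, so the values of those comparisons are given as a description and support nothing by themselves.

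Cells make cholesterol from acetyl-CoA through mevalonate, isoprenoids, squalene and lanosterol. When sterol in the endoplasmic reticulum is low, Scap escorts the SREBP factors to the Golgi, where they are cut, and the released part switches on sterol and fatty acid genes; Insig1 and Insig2 hold the Scap complex back when sterol is plentiful. In beta cells cholesterol of the plasma membrane and of insulin granules bears on insulin secretion, and fatty acid synthesis takes up carbon from glucose metabolism through citrate.

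RNA was sequenced from islets of 2 mice in which tamoxifen had deleted NFATc2 in INS-1 expressing cells of the adult (NFATc2βKO, called KO here) and of 2 Wildtype mice that had tamoxifen without a resulting deletion; the labels give the strain of both as Agouti/C57BL6. Non-beta cells of the KO islets keep the gene, and the protocol names C57BL/6 mice from JAX beside the transgenic line without saying whether the animals were littermates. After a night at 5.5 mM glucose, islets were left untreated for 2 h or given a cytokine cocktail for 2 h. The cocktail was IL1β (5 ng/mL), TNFα (10 ng/mL) plus IFNγ (50 ng/mL) in 11 mM glucose. The glucose of the untreated islets in those 2 h is not given. Whether glucose changed together with the cytokines is therefore not known. Genotype and treatment together gave 4 groups of 2 libraries. The deposited tables call the control genotype Mut, a name that matches no label. It was taken for Wildtype because that is the remaining genotype, and the name of the tables is used below.

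Per library there were 14063365 to 25936711 reads in the genes used. They were recovered as whole numbers from the deposited group means. Values are normalized counts, that is reads divided by the size factor of the library. Each group held 1 female and 1 male library by 4 Y-linked genes, and values are listed female first. Islet hormone genes were abundant, with group means of 547303 to 621091 normalized counts for Ins1. Nfatc2 had group means of 1005 and 943 normalized counts in KO islets, untreated and with cytokines, and 1413 and 1395 in Mut islets. The authors did not call Nfatc2 lower in either treatment. Both KO libraries lay below both Mut libraries within each treatment. Across treatments they overlapped, with 1167 in the untreated KO female and 1144 in the treated Mut male. Summed marker levels of other cells differed by genotype. The 13 measured proliferation genes of 15 listed summed to 3181 to 4004 normalized counts over the KO libraries and 2086 to 2229 over the Mut libraries, and the authors called 3 of them higher in KO untreated and 4 with cytokines. The 10 measured macrophage and leukocyte markers of 11 summed to 3924 to 5584 against 2584 to 3260, with 1 and 3 called higher. The 8 endothelial markers summed to 4650 to 5934 against 7329 to 9661, with 0 and 5 called lower. The 8 stromal markers summed to 10435 and 5404 in untreated KO against 1949 and 1622 in untreated Mut, with 1 called higher. With cytokines they summed to 13807 and 4910 against 10531 and 2177, with 0 called. Over all 16333 genes the authors called 58 higher and 9 lower in KO untreated, and 133 higher and 30 lower with cytokines. Ranges in KO and Mut were, for acinar markers 21704 to 123892 and 5392 to 62173, and for duct markers 18758 to 29941 and 18921 to 28871. Of 6 adipocyte markers, 1 was in the tables. No recovered marker was at 0 in any library. These shifts run along the same genotype split as the lipid genes, and their part in the results was not tested. In such bulk samples fewer cells of a type and less RNA per cell cannot be told apart.

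Most sterol synthesis enzymes had higher values in KO islets than in Mut islets, 16 of 19 mevalonate and sterol enzymes in each treatment, whereas Srebf1 and Srebf2 overlapped between genotypes and the fatty acid genes went both ways. In the authors' deposited table for untreated islets, 26 of the 38 genes were higher in KO and 12 lower, with a median log2 difference of 0.11 beside -0.004 over all genes. With cytokines 27 were higher and 11 lower in the authors' deposited table, with a median of 0.15 beside -0.003. The authors' false discovery rate (FDR) was below 0.05 for 1 gene untreated, Hmgcs1, and for 3 with cytokines, Hmgcs1, Msmo1 and Lpin1. All were higher in KO, a direction in which 0.355% of all genes were called untreated and 0.814% with cytokines. Calls in either direction came to 0.41% and 0.998% of all genes.

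The separation was visible library by library. Both untreated KO libraries lay above both Mut libraries for 19 of the 38 genes, where 18.7% of all genes did so, and below them for 1 (18.3% of all genes). With cytokines the counts were 18 above (14.7% of all genes) and 1 below (14.2%). All 4 KO libraries lay above all 4 Mut libraries for 16 of the 38 (5.37% of all genes) and below for 1, Acly (4.76%). Within each sex and each treatment KO was higher for 18 genes (15.7% of all genes) and lower for Acly and Acaca (15% of all genes). The 16 fully separated genes were 4 of the 8 mevalonate enzymes, 7 of the 11 sterol enzymes, 1 of the 5 SREBP genes, 1 of the 3 transport genes and 3 of the 11 fatty acid genes. The untreated and treated libraries come from the same mice, so the 2 genotype comparisons do not replicate each other.

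**Figure D1:**
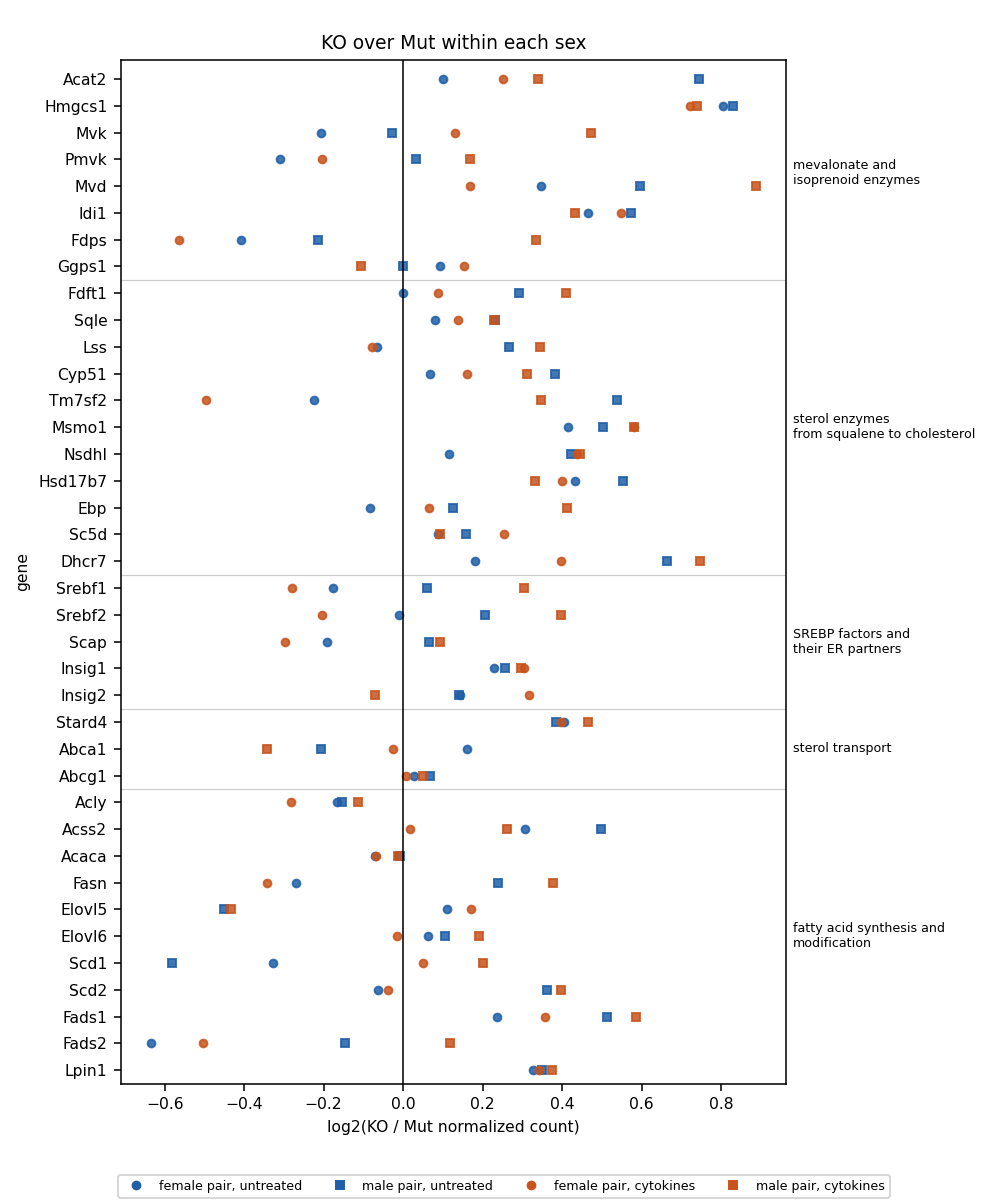
Log2 ratio of KO to Mut normalized counts (x axis) for each of the 38 genes (y axis, grouped by role), computed within the female pair (circles) and the male pair (squares), untreated (blue) and with cytokines (orange). The 4 points of Hmgcs1 lie close together at the right, Acly lies left of zero in all 4, and points of the SREBP factors and Fasn fall on either side of zero by sex.

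The calls rest on the authors' model, whose covariates are not given. Fits with limma to the recovered reads over all 8 libraries called 0 of the 38 genes in either genotype comparison without a term for the sex of the mouse, where 0% and 0.0123% of all genes were called higher. With the sex covariate limma called 3 untreated, Hmgcs1, Msmo1 and Stard4 (1.18% of all genes called higher), and 6 with cytokines, Fads1, Hmgcs1, Insig1, Lpin1, Msmo1 and Stard4 (2.42% of all genes). Libraries of the same mouse enter such fits as separate samples, so their p-values are too small. For a single gene 2 mice against 2 cannot give an exact two-sided permutation p below 0.333.

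Promoters are printed for Hmgcs1, which had the largest difference, Msmo1, also called, and Insig1, a known SREBP target. RefSeq (GRCm38.p6) gave promoters for 30 of the 38 genes, each window running from 250 bases before to 50 bases after the start. The positions are chr13:119690101-119690400 on the plus strand for Hmgcs1, chr8:64733529-64733828 on the minus strand for Msmo1 and chr5:28071162-28071461 on the plus strand for Insig1. Capitals mark a sterol regulatory element, searched as TCACNCCAC, and CCAAT boxes, searched as CCAAT on both strands (ATTGG is the box on the other strand).
Hmgcs1: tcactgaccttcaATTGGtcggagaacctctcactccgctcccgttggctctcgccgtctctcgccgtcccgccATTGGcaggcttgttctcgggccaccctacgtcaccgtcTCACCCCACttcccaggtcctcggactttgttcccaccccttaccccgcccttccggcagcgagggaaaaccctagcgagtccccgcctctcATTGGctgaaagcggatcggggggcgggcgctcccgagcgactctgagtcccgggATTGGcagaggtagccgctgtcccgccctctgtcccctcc
Msmo1: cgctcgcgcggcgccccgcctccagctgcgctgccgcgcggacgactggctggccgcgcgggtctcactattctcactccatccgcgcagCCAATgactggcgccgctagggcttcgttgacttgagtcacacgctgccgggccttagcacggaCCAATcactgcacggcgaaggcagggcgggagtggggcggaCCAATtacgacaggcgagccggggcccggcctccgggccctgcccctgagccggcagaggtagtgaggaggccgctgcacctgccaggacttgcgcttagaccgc
Insig1: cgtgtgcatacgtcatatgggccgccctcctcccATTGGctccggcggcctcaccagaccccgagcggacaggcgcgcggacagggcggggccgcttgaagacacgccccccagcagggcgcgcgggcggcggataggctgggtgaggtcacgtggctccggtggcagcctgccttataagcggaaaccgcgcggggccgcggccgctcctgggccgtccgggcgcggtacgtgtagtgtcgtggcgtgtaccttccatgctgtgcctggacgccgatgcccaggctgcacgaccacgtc

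Of the 30 genes only Hmgcs1 had the sterol element in this spelling, which 1.44% of 27025 genes held. A gene counted if any of its promoters held the motif. The 27025 genes were not limited to those measured in these islets. CCAAT, the box bound by NF-Y, a usual partner of SREBP, was present in 23 of the 30 (76.7%) against 41.1% of the 27025 genes. It was found in 9 of 9 sterol enzyme promoters and 4 of 8 fatty acid gene promoters. The GC box GGGCGG was also in 23 of the 30, against 38.2% of the 27025 genes. The E-box CACGTG was in 7 (23.3%) against 8.09%. Motifs were searched separately on both strands and may overlap each other, and a match of letters is a description, not a bound site.

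Hmgcs1 makes HMG-CoA for the mevalonate pathway and had the largest difference of the set. It lies at chr13:119690379-119708260 on the plus strand (ENSMUSG00000093930, GRCm38). Untreated libraries held 5599 and 5808 normalized counts of Hmgcs1 in KO and 3202 and 3269 in Mut islets. Treated libraries had 5997 and 6479 in KO islets beside 3636 and 3881 in Mut islets. Every KO library exceeded every Mut library, and the groups were far from overlapping. Group means of Hmgcs1 without cytokines were 5703 ± 147 for KO and 3236 ± 46.9 for Mut, and after cytokines 6238 ± 341 for KO and 3758 ± 173 for Mut (SD, n = 2 each). In the authors' deposited table Hmgcs1 was 1.76-fold higher in KO untreated (log2 0.82, SE 0.10) and 1.66-fold higher with cytokines (log2 0.73, SE 0.10), past the FDR threshold in both. With limma the adjusted p was 0.140 untreated and 0.112 with cytokines without the sex covariate, and 0.0060 and 0.0059 with it. An antisense gene, Gm48342, covers 12.1% of the Hmgcs1 exon bases, and the strand setting of the counting is not given.

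The other mevalonate enzymes were uneven. Mvd, which decarboxylates mevalonate diphosphate, had 250 and 317 normalized counts in untreated KO and 197 and 210 in untreated Mut islets. With cytokines Mvd had 254 and 310 in KO and 226 and 167 in Mut islets. KO libraries of Mvd were all above Mut libraries, by a log2 difference of 0.48 (SE 0.26) untreated and 0.53 (SE 0.26) with cytokines in the authors' deposited table, not past the FDR threshold. Idi1, the isomerase that interconverts the 5-carbon isoprenoid units, and Acat2, which joins acetyl-CoA units, were also above Mut in all 4 KO libraries. Idi1 held 416 to 470 normalized counts over the KO libraries and 285 to 348 over the Mut libraries. Acat2 held 261 to 347 in KO and 207 to 243 in Mut. Mvk, Pmvk, Fdps and Ggps1, the kinases and prenyl synthases, overlapped between genotypes. Mvk, mevalonate kinase, had 215 and 186 in untreated KO, 263 and 233 in treated KO, 249 and 189 in untreated Mut and 240 and 168 in treated Mut. Fdps reads share 26.7% of their exon bases with another gene on the same strand, so its count is uncertain.

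Of the enzymes that form squalene or carry it to cholesterol, all 11 had a higher mean in KO untreated. With cytokines 10 did, Tm7sf2 being the exception. The median log2 difference of these enzymes was 0.16 untreated and 0.25 with cytokines in the authors' deposited tables. Msmo1, a C4-methyl sterol oxidase that works on lanosterol products, lies at chr8:64718139-64733792 on the minus strand (ENSMUSG00000031604). Untreated libraries held 3263 and 3715 normalized counts of Msmo1 in KO and 2446 and 2620 in Mut. With cytokines they held 3574 and 4045 in KO and 2389 and 2706 in Mut, so no KO library reached down to a Mut library. In the authors' deposited table the log2 difference of Msmo1 was 0.46 (SE 0.14, FDR 0.123) untreated and 0.58 (SE 0.14, FDR 0.0055) with cytokines. Dhcr7 catalyses the last reduction to cholesterol. It held 1171 and 1445 in untreated KO, 1194 and 1458 in treated KO, 1033 and 912 in untreated Mut and 906 and 869 in treated Mut. Its log2 difference was 0.43 (SE 0.18) untreated and 0.58 (SE 0.18, FDR 0.0747) with cytokines in the authors' deposited table. Hsd17b7, a 3-ketosteroid reductase of the same pathway, held 482 and 484 in untreated KO, 557 and 503 in treated KO, 358 and 330 in untreated Mut and 422 and 399 in treated Mut. KO and Mut libraries of Hsd17b7 did not overlap.

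Fdft1, Cyp51, Nsdhl and Sc5d were the other sterol enzymes with every KO library above every Mut library, though by smaller margins. Fdft1, squalene synthase, held 1640 to 1840 normalized counts in KO and 1370 to 1639 in Mut. Its exons share 18.3% of their bases with Ctsb on the other strand, a gene with a mean of 10760 normalized counts. Cyp51, lanosterol demethylase, held 2540 to 2835 in KO and 2130 to 2486 in Mut. Nsdhl held 403 to 482 against 346 to 372, and Sc5d held 1405 to 1482 against 1200 to 1330. Sqle, squalene epoxidase, held 4949 and 5464 in untreated KO and 4682 and 4656 in untreated Mut, and 5148 and 5837 against 4680 and 4978 with cytokines. KO lay above Mut in each treatment, and the only overlap was of an untreated KO library with a treated Mut library. Lss and Tm7sf2 were higher in KO in the male pair only, and Ebp overlapped between genotypes over the 8 libraries. Ebp, sterol isomerase, had 594 and 703 in untreated KO, 628 and 756 in treated KO, 629 and 644 in untreated Mut and 601 and 567 in treated Mut. Together the 19 mevalonate and sterol enzymes summed to 28164 to 31924 normalized counts over the KO libraries and to 23173 to 24310 over the Mut libraries. They made up 0.151% to 0.167% of normalized counts in KO and 0.122% to 0.131% in Mut.

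**Figure D2:**
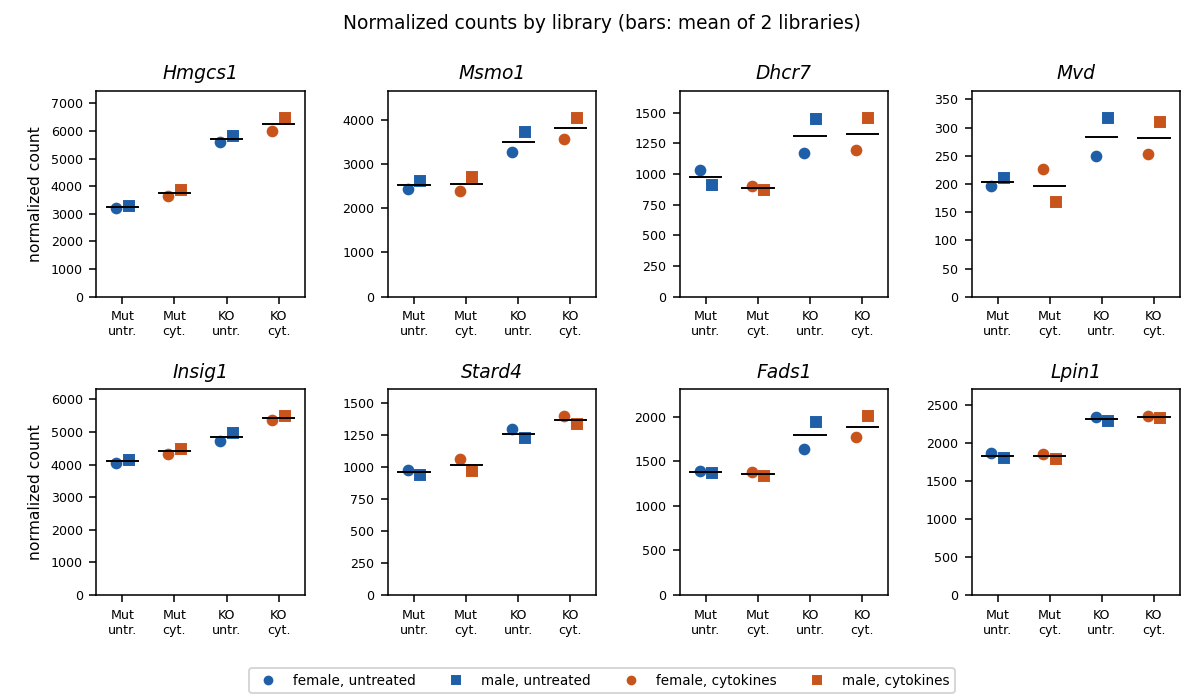
Normalized counts per library (y axis, starting at 0) of 8 genes in the 4 groups (x axis), circles female and squares male, blue untreated and orange with cytokines, with a bar at the mean of 2 libraries. Every KO point lies above every Mut point in all 8 panels, by the widest margin for Hmgcs1.

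Among the regulators Insig1 alone had all 4 KO libraries above all 4 Mut libraries. Insig1, which retains Scap and is itself a SREBP target, held 4738 and 4960 normalized counts in untreated KO and 4045 and 4156 in untreated Mut. With cytokines it held 5352 and 5487 in KO and 4336 and 4468 in Mut islets. The log2 difference of Insig1 was 0.24 (SE 0.09, FDR 0.488) untreated and 0.30 (SE 0.09, FDR 0.0973) with cytokines in the authors' deposited table. Insig2, its paralog with the same role, held 1275 and 1456 in untreated KO, 1313 and 1324 in treated KO, 1155 and 1321 in untreated Mut and 1053 and 1390 in treated Mut, with overlap in both treatments.

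The transcripts of the SREBP factors did not separate by genotype. Srebf2 encodes the factor mainly tied to sterol genes and held 3358 and 2937 normalized counts in untreated KO and 3379 and 2547 in untreated Mut. With cytokines Srebf2 held 3191 and 3162 in KO and 3677 and 2400 in Mut. Its log2 difference was 0.09 (SE 0.22, 95% interval -0.35 to 0.52) untreated in the authors' deposited table, so differences of that size in either direction were not resolved. Srebf1, the factor mainly tied to fatty acid genes, held 2939 and 2427 in untreated KO, 2796 and 2464 in treated KO, 3318 and 2327 in untreated Mut and 3392 and 1997 in treated Mut. For both factors the Mut pair spread on either side of the KO pair in each treatment, the female library high and the male library low. Scap showed the same layout, with 1707 to 1896 in KO and 1600 to 2208 in Mut. SREBP cleavage was not measured, and transcript counts of these genes do not report it directly.

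In sterol transport, Stard4 alone had all 4 KO libraries above all 4 Mut libraries. Stard4, which carries cholesterol between membranes, held 1296 and 1225 normalized counts in untreated KO and 980 and 938 in untreated Mut. With cytokines it held 1397 and 1339 in KO and 1060 and 970 in Mut. Its log2 difference was 0.40 (SE 0.13) untreated and 0.43 (SE 0.13, FDR 0.0607) with cytokines in the authors' deposited table. Abca1, which exports cholesterol to apolipoprotein A-I and is induced through liver X receptors, held 9436 and 7265 in untreated KO, 9213 and 6874 in treated KO, 8441 and 8377 in untreated Mut and 9383 and 8719 in treated Mut. The KO libraries of Abca1 bracketed the untreated Mut libraries. Abcg1, another exporter, held 3336 and 3397 in untreated KO and 3272 and 3240 in untreated Mut, without overlap, and 3555 and 3296 against 3535 and 3183 with cytokines, with overlap. Abcg1 had log2 differences of 0.05 (SE 0.11) and 0.03 (SE 0.11) in the authors' deposited tables.

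The fatty acid genes were mixed, with a median log2 difference of -0.04 untreated and 0.09 with cytokines in the authors' deposited tables. Lpin1, a phosphatidate phosphatase that makes diacylglycerol and also acts in the nucleus, lies at chr12:16535669-16610966 on the minus strand (ENSMUSG00000020593). It held 2342 and 2288 normalized counts in untreated KO and 1868 and 1797 in untreated Mut. With cytokines Lpin1 held 2351 and 2321 in KO and 1854 and 1790 in Mut, a narrow spread within each genotype. Its log2 difference was 0.34 (SE 0.10, FDR 0.137) untreated and 0.36 (SE 0.10) with cytokines in the authors' deposited table, where the FDR was just under 0.05. The call on Lpin1 was lost when genes with a mean below 50 normalized counts were left out before adjustment.

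Fads1, the delta-5 desaturase of polyunsaturated fatty acids, held 1636 and 1942 in untreated KO, 1770 and 2005 in treated KO, 1388 and 1362 in untreated Mut and 1382 and 1335 in treated Mut. Fads1 was higher in KO by 0.38 (SE 0.14) untreated and 0.48 (SE 0.14, FDR 0.0722) with cytokines on the log2 scale in the authors' deposited table. Its neighbour Fads2, the delta-6 desaturase, went the other way in the means. Fads2 held 250 and 150 in untreated KO, 322 and 169 in treated KO, 388 and 166 in untreated Mut and 457 and 156 in treated Mut, with the female library above the male in each group. Acss2, which makes acetyl-CoA from acetate, held 1106 and 1401 in untreated KO and 895 and 993 in untreated Mut. With cytokines Acss2 held 1033 and 1207 in KO and 1021 and 1007 in Mut, so the genotypes stayed apart by a small margin.

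Acly, which cleaves citrate to acetyl-CoA for lipid synthesis, was the one gene with all 4 KO libraries below all 4 Mut libraries. Untreated libraries held 56610 and 57912 normalized counts of Acly in KO and 63579 and 64414 in Mut. With cytokines they held 55574 and 57117 in KO and 67565 and 61817 in Mut islets. The log2 difference of Acly was -0.16 (SE 0.09) untreated and -0.20 (SE 0.09, FDR 0.677) with cytokines in the authors' deposited table, not past the threshold. Per kilobase of exon Acly had the highest level of the set, 12123 normalized counts in untreated Mut islets, followed by Scd2 at 2288, Insig1 at 1326 and Elovl5 at 1108. Fdps was lowest at 28.4 on that scale. With Acly as the largest term, the summed fatty acid genes came to 89392 to 90678 normalized counts in KO and 90113 to 102299 in Mut libraries, which overlap. Acly, Idi1, Acat2, Scap and Elovl5 were chosen for description after their values were seen.

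Several lipogenic genes differed more between the female and male libraries in Mut islets than in KO islets, a pattern that was not tested. Fasn, fatty acid synthase, held 7491 and 5065 normalized counts in untreated Mut and 7121 and 4207 in treated Mut, against 6211 and 5976 in untreated KO and 5613 and 5466 in treated KO. The female library of Fasn was 1.48-fold and 1.69-fold above the male in Mut, and 1.04-fold and 1.03-fold above it in KO. Scd2, a stearoyl-CoA desaturase, held 14424 and 10575 in untreated Mut and 15345 and 10812 in treated Mut, against 13800 and 13581 in untreated KO and 14933 and 14246 in treated KO. Elovl5, an elongase of polyunsaturated fatty acids, was split the other way. It held 3014 and 4791 in untreated Mut and 2837 and 4886 in treated Mut, with 3194 to 3618 over the KO libraries. Scd1, the other desaturase, was higher in the female library of every group in both genotypes. With 1 mouse per sex and genotype, sex and the individual mouse cannot be told apart.

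**Figure D3:**
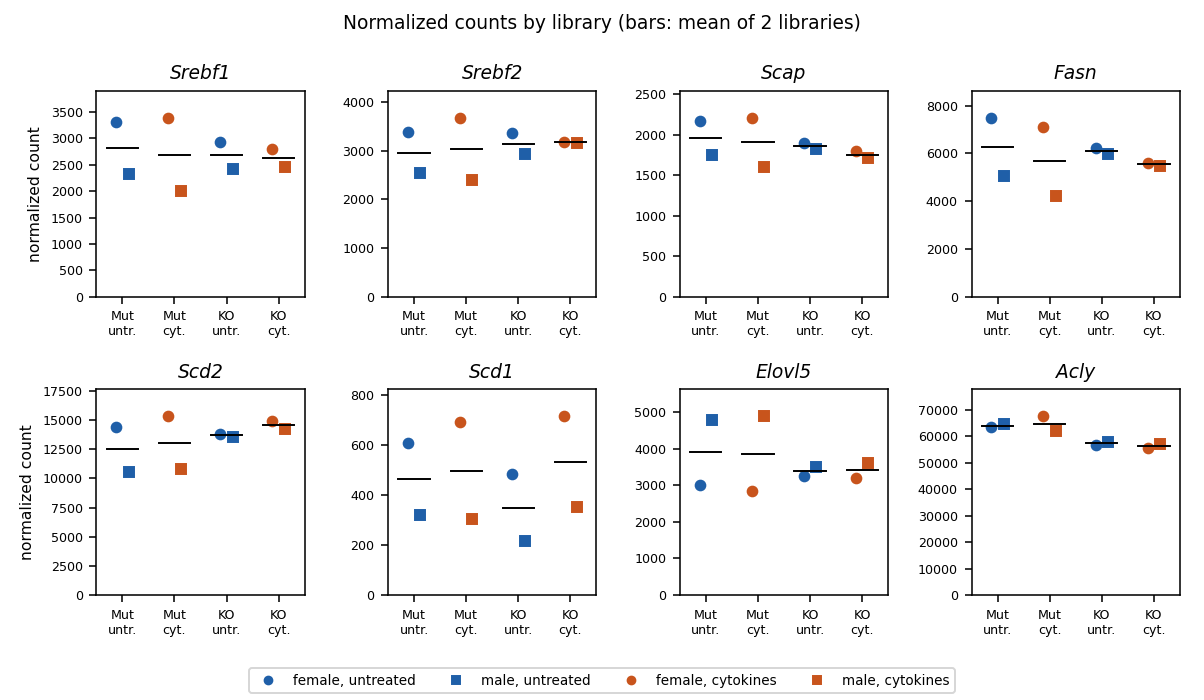
Normalized counts per library (y axis, starting at 0) of 8 genes in the 4 groups (x axis), circles female and squares male, blue untreated and orange with cytokines, with a bar at the mean of 2 libraries. Mut points of Srebf1, Srebf2, Scap, Fasn, Scd2 and Elovl5 lie further apart by sex than KO points, Scd1 is split in every group, and Acly has all KO points below all Mut points.

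The cytokine comparisons were not those the set was chosen on, though earlier results of these data were known. The authors called no sterol or fatty acid gene of the set in either genotype. In KO islets 23 of the 38 genes were higher and 15 lower with cytokines in the authors' deposited table, with a median log2 change of 0.02 beside 0.001 over all genes. None was called (0 of 38) in the authors' deposited table, while 0.0429% of all genes were called in KO. An unadjusted p below 0.05 was found there for 0 of the 38 and for 166 of all 16333 genes. In Mut islets 19 were higher and 19 lower, and the median was 0.00 beside 0.003 over all genes. Again 0 were called in the authors' deposited table (0.0122% of all genes called). An unadjusted p below 0.05 was found there for 0 of the 38 and for 150 of all 16333 genes. Such p-values were rare over all genes in both genotypes, so 0 of 38 says little about the set. Limma without the mouse as a block called 0 in both genotypes, as it did over all genes (0%). With the block it called 0 in Mut islets (0.172% of all genes) and 1 in KO islets, Scd1 (0.344% of all genes). For comparison, Cxcl10, a chemokine induced by interferon, had group means of 59.5 normalized counts untreated and 398 treated in KO islets, and of 31.6 and 137 in Mut islets.

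Hmgcs1 had the smallest p of the set in Mut islets. Its log2 change was 0.22 (SE 0.11, p = 0.0570, 95% interval -0.01 to 0.44) in Mut and 0.13 (SE 0.11, p = 0.249, 95% interval -0.09 to 0.35) in KO islets in the authors' deposited tables. Both mice of each genotype had the higher value with cytokines. Insig1 had a log2 change of 0.16 (SE 0.10, p = 0.115) in KO and 0.10 (SE 0.10, p = 0.319) in Mut in the authors' deposited tables, with the treated pair above the untreated pair in both genotypes. Elovl6, which elongates palmitate, was similar in both, at 0.19 (SE 0.13, p = 0.164) and 0.18 (SE 0.14, p = 0.183) in the authors' deposited tables. Elovl6 held 1260 and 1258 normalized counts in untreated KO, 1336 and 1533 in treated KO, 1207 and 1169 in untreated Mut and 1350 and 1342 in treated Mut. Hsd17b7 had a log2 change of 0.26 (SE 0.19, p = 0.176) in Mut islets in the authors' deposited table. Both treated libraries lay above both untreated libraries for 9 of the 38 genes in KO (15.3% of all genes) and 6 in Mut (11.3%), and below for 3 (14.6%) and 3 (10.9%).

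Scd1 was higher with cytokines within both KO mice. It makes oleate and palmitoleate. The KO female had 485 normalized counts untreated and 717 treated, and the KO male 215 and 352. The Mut female had 609 and 692, and the Mut male 322 and 306. The sexes differ more than the treatments, so the untreated and treated KO libraries overlap. The authors' deposited table gave a log2 change of 0.61 (SE 0.57, p = 0.283) in KO islets, whereas limma with the mouse as a block gave 0.62 with an adjusted p of 0.0413.

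**Figure D4:**
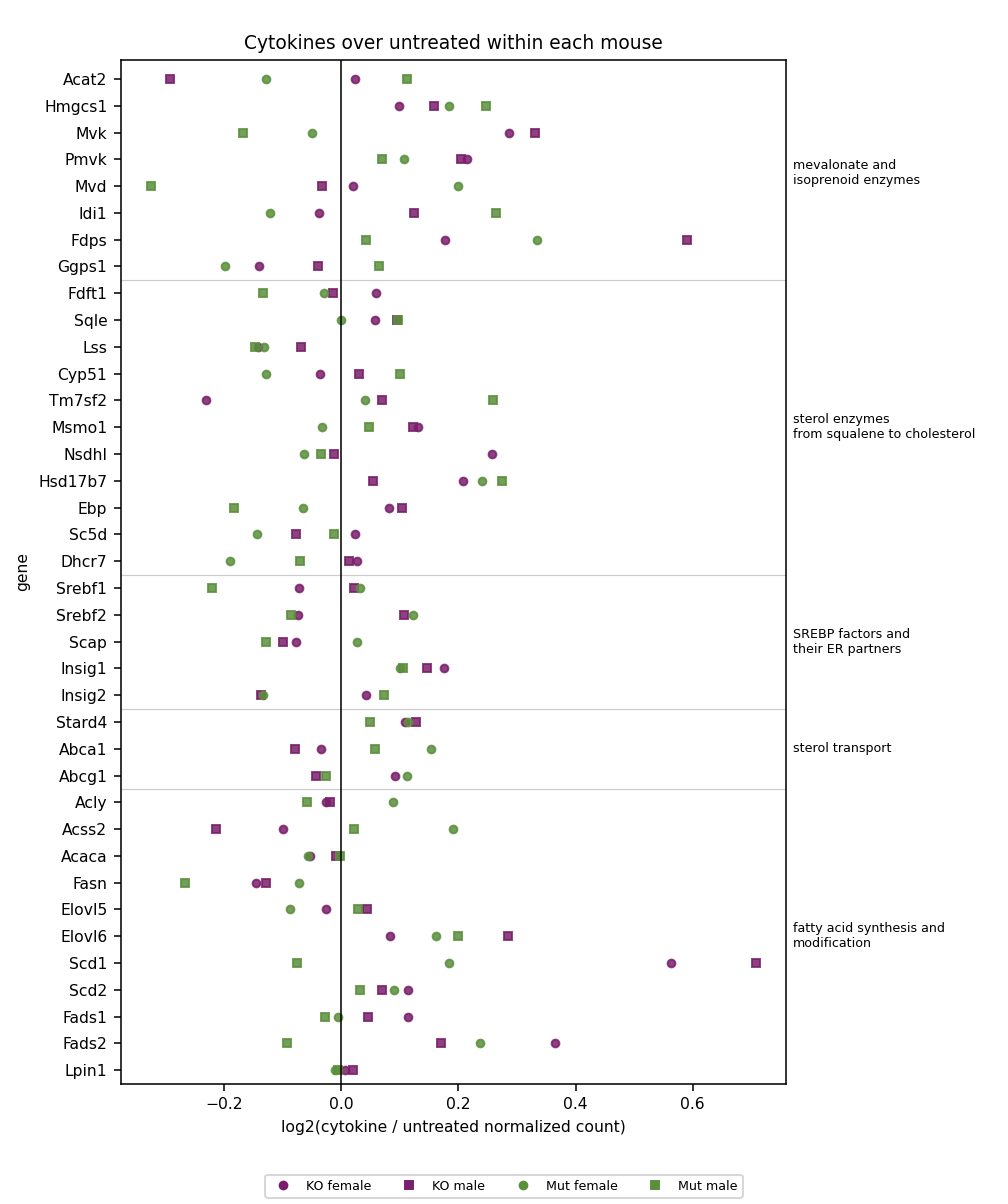
Log2 ratio of cytokine-treated to untreated normalized counts (x axis) for each of the 38 genes (y axis, grouped by role), within each KO mouse (purple) and each Mut mouse (green), circles female and squares male. Most points lie within 0.3 of zero on either side, and the 2 KO points of Scd1 lie farthest to the right with 1 KO point of Fdps.

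Whether the cytokine response differed by genotype was tested for each gene as the difference of the deposited log2 changes. In that test 0 of the 38 genes passed an FDR of 0.05, where 0% of all genes passed. An unadjusted p below 0.05 was found for 0 of the 38 and for 36 of all 16333 genes. Such a p was rare over all genes, so 0 of 38 says little about the set. Whether the authors' model matched the libraries of the same mouse is not given. A model that does not match them can miss changes shared by both mice. Limma also called 0, with and without the mouse as a block. The smallest p-values belonged to Acss2, at -0.26 (SE 0.25, p = 0.306, 95% interval -0.76 to 0.24), Mvk, at 0.41 (SE 0.44, p = 0.350, 95% interval -0.45 to 1.27), and Ebp, at 0.22 (SE 0.24, p = 0.366, 95% interval -0.26 to 0.70), all computed from the authors' deposited tables. For Hmgcs1 the difference was -0.09 (SE 0.16, 95% interval -0.40 to 0.23). Intervals this wide leave room for unequal responses.

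Other genes of the pathways were followed as lists. Of 22 measured genes of sterol handling and SREBP control outside the set (23 listed), 10 were higher in KO untreated and 12 with cytokines, with medians of -0.01 and 0.02, and 0 were called in the authors' deposited tables. Soat1, which esterifies cholesterol for storage, had the largest difference, 0.69 (SE 0.19, FDR 0.0666) untreated and 0.61 (SE 0.19, FDR 0.104) with cytokines in the authors' deposited table. Its libraries held 3925 to 4822 normalized counts in KO and 2426 to 3218 in Mut, without overlap. Tmem97, a sterol-regulated membrane protein, differed by 0.33 (SE 0.18) and 0.56 (SE 0.18, FDR 0.125) in the authors' deposited tables.

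Of 19 further lipid synthesis genes, 15 were higher in KO untreated and 13 with cytokines, and 0 were called in the authors' deposited tables. Thrsp, a lipogenic regulator, differed most, by 1.87 (SE 0.83) and 1.57 (SE 0.82) on the log2 scale in the authors' deposited tables, from 44.5 to 127 normalized counts in KO and 9.31 to 45.8 in Mut libraries, which overlap. Acacb, an acetyl-CoA carboxylase, differed by 0.53 (SE 0.78) and 0.62 (SE 0.77) in the authors' deposited tables. Of 13 measured genes of fatty acid oxidation and ketogenesis (14 listed), 10 were higher in KO untreated and 9 with cytokines, and 0 and 1 were called in the authors' deposited tables. Ehhadh, a peroxisomal oxidation enzyme, differed by 0.81 (SE 0.35) and 0.79 (SE 0.35) in the authors' deposited tables. The lists share the libraries of the set and were chosen with its results known.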

How the data were processed

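RNA sequencing of mouse islets in 4 groups of 2 libraries was used as 4 deposited tables of the authors' own comparisons. Per the submitters' processing notes, HISAT2, HTSeq, DESeq2 and the build GRCm38 were used; versions, roles and strand setting are not given in the sources used here. Per the file headers the deposited signal columns are means of normalized counts over a group or over all libraries. The deposited log2 fold change, score (a Wald statistic) and p-values with FDR come from the model of the authors. Dividing the log2 fold change by the score gave the standard error, and a gene was called at an FDR below 0.05.

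Each group mean averages 2 libraries, whose whole reads were divided by size factors. The whole reads of each library were recovered for 16300 of 16333 genes (99.8%), 198 of them through the mean over all libraries, with a largest relative misfit of 5.5e-15. In data simulated from all 16300 genes 16270 were settled and 16270 of those were right. All 38 genes were recovered. The lowest mean over all libraries in the tables was 23.2 normalized counts, so low genes had been left out before deposit. Reads per library, which range less than 2-fold, limit the precision of low genes, and all p-values rest on at most 2 mice per genotype.

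Alternatives used limma 3.58.1 in R 4.3.3 (voom, or trend on log2(normalized count + 5)) with and without a block, total counts as scaling, FDR below 0.1, genes with a mean of at least 50, and each library left out in turn. A fit of the 4 libraries of 1 treatment with the sex covariate was chosen after seeing the data. Libraries of the same mouse were matched by sex from Ddx3y, Eif2s3y, Kdm5d and Uty, since the labels number the mice but the recovered libraries carry no number. Deviations of the female from the male library correlated between untreated and treated islets by 0.811 in KO and 0.829 in Mut over 12337 genes, and the block is the mouse for cytokine comparisons and sex for genotype comparisons.

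The set and the lists were chosen with earlier results of these data known. Values in every library are given for genes called in any comparison, for the 2 of each role with the largest genotype difference, for the 3 with the smallest p in each cytokine comparison and in the interaction, and for Srebf1, Srebf2, Insig1, Fasn, Scd1, Scd2 and Abca1. Of the other lists, those for beta cells and for alpha, delta and PP cells summed to 83343 to 90792 and 39843 to 69523 normalized counts in KO and 76046 to 85741 and 40216 to 63921 in Mut, each over 7 recovered genes. Positions come from GENCODE M21 on GRCm38 (22 identifiers were unmatched), and promoters from RefSeq on GRCm38.p6. A result for 1 gene of the oxidation and ketogenesis list is not reported here.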

Additional observations from a re-analysis of the deposited data

Results flagged for a closer look

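For 10 of the 38 genes (26.3%, beside 20.6% of 16300 genes) KO was higher in 1 sex and lower in the other under both treatments. The mean log2 KO over Mut difference in the female pair minus that in the male pair was -0.356 for Pmvk, 0.176 for Ggps1, -0.379 for Lss, -0.804 for Tm7sf2, -0.409 for Srebf1, -0.409 for Srebf2, -0.324 for Scap, -0.615 for Fasn, 0.583 for Elovl5 and -0.431 for Scd2. KO was lower in the female pair and higher in the male pair for 8 of them (10.5% of all genes). The reverse held for Ggps1 and Elovl5 (10.1% of all genes). Of the 5 SREBP genes 3 were among the 8, and of the 19 mevalonate and sterol enzymes 4 were among the 10. The difference between the sexes was not tested, because each genotype had 1 mouse of each sex and the 2 treatments share those mice. The exons of Tm7sf2 share 12.1% of their bases with Vps51 on the same strand, so its count is uncertain.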

How the results depend on the processing

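The number of genes of the set called higher in KO depended on the model. Untreated, the 1 call in the authors' deposited table (Hmgcs1) became 0 with limma without the replicate block, 0 with total counts as scaling, 0 with limma trend, 3 with the replicate block (sex covariate) and 7 in the added fit to the 4 untreated libraries. With cytokines, the 3 calls became 7 at an FDR below 0.1, 0 with limma without the block, 0 with total counts, 0 with trend, 6 with the replicate block and 3 in the added fit to the 4 treated libraries, which gained Dhcr7 and lost Lpin1. Leaving out each library in turn gave 0 to 0 in both genotype comparisons. Over all genes the calls untreated were 67 in the authors' deposited table, 0 with limma without the block, 275 with it and 767 in the fit to 4 libraries, and with cytokines 163, 2, 587 and 942. At an FDR below 0.1 they were 100 and 231, with a mean of at least 50 they were 54 and 103, and with trend 2 and 2. For the cytokine response in KO, limma called 0 of the set without and 1, Scd1, with the replicate block (the mouse), and 0 and 56 over all genes, where the authors' deposited table had 7. In Mut islets and for the interaction the block changed no call of the set, while limma called 0 genes of all without and 28 with it in Mut, where the authors' deposited table had 2. The fit to 4 libraries leaves few residual degrees of freedom, and where a library was left out the lone sample is assumed to vary like the other groups. No result reversed its direction past a threshold. Under total counts as scaling the sign turned for Ggps1 in the genotype comparison with cytokines, Mvd in the KO response, and Acat2, Cyp51 and Lpin1 in the Mut response. The lowest gene of the set, Fdps, held 88.0 to 173 normalized counts, and whether depth limits its precision was not tested. The cause of these shifts was not tested.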
